A study of Mus musculus with 6 samples.

Results

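Pdk4 and Pdp1 are 2 genes with opposite actions on one enzyme, the pyruvate dehydrogenase complex of mitochondria. The complex turns pyruvate into acetyl-CoA and so commits carbon from glucose to the citric acid cycle. Kinases (Pdk1 to Pdk4) phosphorylate its E1 subunit and switch it off, and phosphatases (Pdp1 and Pdp2) remove the phosphate and switch it on. Pdk4 is best known from heart, skeletal muscle, kidney and liver, where its RNA rises with fasting and fatty acid use. Pdp1 is the calcium-stimulated phosphatase and is best known from heart and skeletal muscle.

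Both genes were taken by name, 2 of 53546 rows of raw counts, in 6 RNA-seq libraries whose labelled source is the intervertebral disc, the pad between vertebrae, of C57BL/6 mice. By label, 3 libraries are wild type and 3 carry disc degeneration. The labels give neither the way degeneration arose, nor an age, nor whether each library came from its own animal. The series' design text speaks instead of retinal RNA from mice 21 days old. The pair was selected on measured values, the counts of these rows in these libraries, so the levels are described below without a test.

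The libraries did not follow their labels in tissue content. Total counts were 3119215 to 4009562 per library, and CPM below is a count scaled by that total in the usual way, in which a floor of 3 counts is 0.748 to 0.962 CPM. Of the heart and striated muscle markers, 9 of 22 could be located, and their summed level was 35860 to 39851 CPM in wild type 1 to 3 and degeneration 1. It was 43.7 and 40.7 CPM in degeneration 2 and 3. In the first 4 libraries the cardiac myosin Myh6 stood at 14664 to 18993 CPM. Ttn, Ryr2, Myl3, Ckm and Lmod2 stood at 466 to 11338 CPM there. Myh2, Myh4 and Ryr1, known from skeletal muscle, stood at 0 to 4.47 CPM. Of the kidney tubule markers, 6 of 16 were located, with 33.3 to 49.1 CPM in the first 4 libraries and 10374 and 8252 CPM in degeneration 2 and 3. For cartilage, annulus and notochord, 12 of 25 markers were located and summed to 512 to 2400 CPM, most of it from Col1a1 and Col1a2. The cartilage proteoglycan Acan had 2 counts in wild type 1, 1 in wild type 2 and 0 elsewhere, the notochord factor Noto had at most 1 count, and Krt19 had 0 in every library. Other members were counted: Krt8 had 438 and 389 counts in degeneration 2 and 3 and at most 3 elsewhere. Col11a2 had 3 to 40 counts per library and Chad 10 to 25. Most located markers were counted over a part of their exon bases, such as 362 of 6726 for Myh6, 1158 of 7469 for Acan and 156 of 1855 for Krt19. A count near 0 therefore does not show absence, and levels of different markers cannot be compared. The 4 adipocyte markers located of 8 summed to 2.11 to 12.5 CPM, the 3 of 8 from liver to 0.839 to 177 CPM, and the 3 of 7 from retina to 1.57 to 6.66 CPM. A chi-square over rows, per degree of freedom, was at least 3.75 for every pair of libraries, so each pair differed by more than counting noise.

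Pdk4 (ENSMUSG00000019577.6) is a protein-coding gene on the minus strand of chromosome 6, at 5483351 to 5496309 on GRCm38. Pdp1 (ENSMUSG00000049225.14) is a protein-coding gene on the minus strand of chromosome 4, at 11958184 to 11966452. For 49890 of the 53546 deposited rows, no base lies on GRCm38 exons of the gene in the row's name, so the position of both rows was checked. The row named Pdk4 covered 3511 of 3511 annotated exon bases in 11 of 11 exon blocks, and the row named Pdp1 covered 4507 of 4507 in 4 of 4 blocks. No other row lay on their exons and no other gene lay under their rows. Among genes whose row has the same exon block widths as in GENCODE M21, the names sat at 0 offset from GRCm38 for 107 genes in a run on chromosome 6, from a start at 3072137 to one at 10804828. The same held for a run of 244 on chromosome 4, from 3103759 to 25867989. Both genes lie inside such a run, and over all chromosomes only 1394 of 48787 genes of this kind had 0 offset.

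The Pdk4 promoter is shown because Pdk4 is the gene of the pair with the wider range of levels. It is the minus strand of chr6:5496310-5496528 on GRCm38.p6, from RefSeq, 219 bases that end at the base before the first annotated exon base. Capitals mark matches, on either strand, to CCAAT (reverse complement ATTGG) and to GGGCGTGG, a GC-rich sequence bound by KLF and SP factors.
Pdk4: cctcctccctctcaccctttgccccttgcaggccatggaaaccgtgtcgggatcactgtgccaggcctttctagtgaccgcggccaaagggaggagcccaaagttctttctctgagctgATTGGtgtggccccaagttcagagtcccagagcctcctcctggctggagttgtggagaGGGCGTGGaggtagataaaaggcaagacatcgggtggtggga
The CCAAT match was found in 30.9% of 32851 promoters of this length and GGGCGTGG in 3.99%. The letters AGGTCA (a nuclear receptor core, in 12.5% of promoters), TCAAGGTCA (estrogen-related receptors, which contains the former, in 0.362%), GTAAACA (FOXO factors, in 2.80%) and CACGTG (the E-box, in 4.97%) were not in this window. These are matches of letters, not measured binding. Pdp1 has no entry in the promoter table used.

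Pdk4 varied widely, also among libraries with the same label. Wild type 1 to 3 held 5046, 3652 and 978 counts, and degeneration 1 to 3 held 1504, 302 and 297. In CPM these were 1258, 1021 and 295 in wild type and 474, 87.5 and 95.2 in degeneration. Wild type 1 and 2 stood highest, wild type 3 and degeneration 1 came between, and degeneration 2 and 3 were lowest. The groups overlapped, because degeneration 1 stood 1.61-fold above wild type 3. Counting error was small beside these gaps: the Wilson 95% interval ran from 277 to 314 CPM for wild type 3 and from 450 to 498 CPM for degeneration 1. Only the lowest neighbours in the order, degeneration 2 (78.2 to 97.9 CPM) and degeneration 3 (85.0 to 107 CPM), had intervals that overlapped. Intervals cover counting error only.

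By group, the mean of Pdk4 was 858 ± 502 CPM for wild type and 219 ± 221 CPM for degeneration (± SD, n = 3 per group). The ratio of means was 3.92-fold, a log2 difference of -1.97, against an SD of 1.26 between libraries of a group on the log2 scale. Without degeneration 1 the degeneration mean was 91.4 CPM and the log2 difference -3.23. Without degeneration 2 and 3 it was -0.86, with 1 library against 3. In degeneration 2 and 3 the heart and striated muscle sum was 43.7 and 40.7 CPM, as given above, and the part of this tissue difference in the Pdk4 level was not tested. In bulk RNA, fewer cells of a type and less RNA per cell cannot be told apart.

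The spread of Pdk4 within wild type was large for these files. Its highest wild type library stood 4.27-fold above the lowest, and 43 of 4812 loci with a wild type mean of at least 5 CPM had a ratio that large, Pdk4 included. The median of these loci was 1.31-fold, and Pdp1 stood at 1.30-fold. This ratio was looked at because the Pdk4 values had been seen. Between wild type 1 and 3, where Pdk4 went from 1258 to 295 CPM, the summed muscle markers went from 35860 to 38933 CPM. The list of cartilage, annulus and notochord markers summed to 2400, 1135 and 611 CPM there (wild type 1 to 3). Its movement was that of the collagens Col1a1 (629, 284 and 146 CPM) and Col1a2 (1749, 832 and 448 CPM). No other member of the list exceeded 9.98 CPM in wild type. The list summed to 548, 512 and 559 CPM in degeneration 1 to 3, and its part in the Pdk4 values was not tested.

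**Figure D1:**
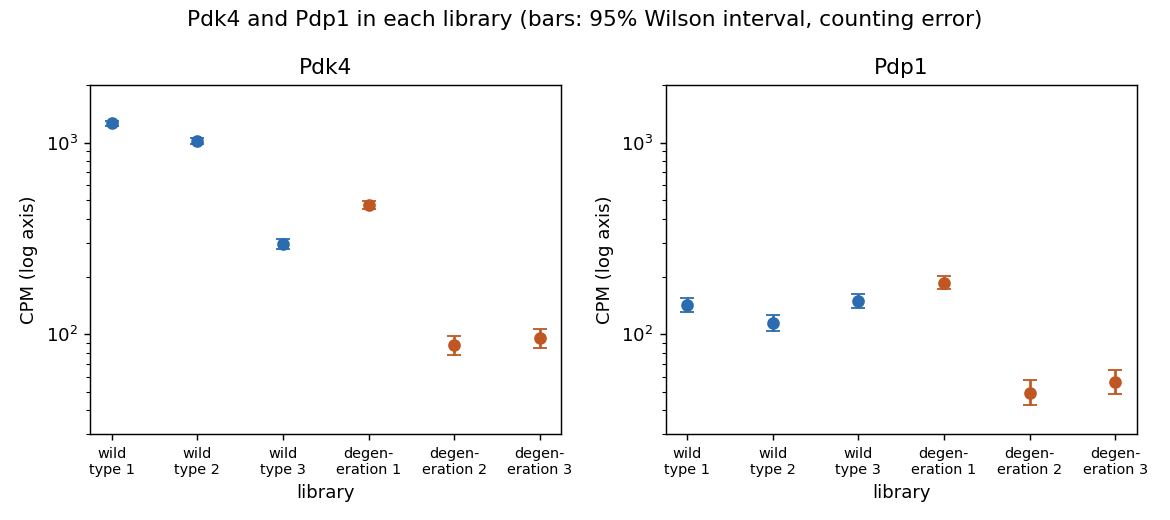
CPM of Pdk4 (left) and Pdp1 (right) in each library on a log axis, blue for wild type and orange for degeneration, with 95% Wilson intervals for counting error. Pdk4 spans 295 to 1258 CPM within wild type, Pdp1 only 114 to 149, and both are lowest in degeneration 2 and 3.

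Pdp1 was lower than Pdk4 per kb of exon in every library and ranged less widely. Per kb, Pdk4 stood at 24.9 to 358 CPM and Pdp1 at 10.99 to 41.2 CPM. Wild type 1 to 3 held 571, 409 and 495 counts, and degeneration 1 to 3 held 590, 171 and 176. In CPM these were 142, 114 and 149 in wild type and 186, 49.5 and 56.4 in degeneration. Degeneration 1 stood highest of all 6 libraries and degeneration 2 and 3 lowest, so the degeneration values lay on both sides of the wild type values. The intervals of wild type 1 (131 to 155 CPM) and wild type 3 (137 to 163 CPM) overlapped, and that of wild type 2 (104 to 126 CPM) lay below both. Those of degeneration 2 (42.7 to 57.5 CPM) and degeneration 3 (48.7 to 65.4 CPM) overlapped too. Degeneration 1, at 171 to 201 CPM, was clear of every other library.

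By group, the mean of Pdp1 was 135 ± 18.5 CPM for wild type and 97.2 ± 76.7 CPM for degeneration (± SD, n = 3 per group), a log2 difference of -0.48. That is less than the SD of 0.76 between libraries of a group. Without degeneration 1 the degeneration mean was 53.0 CPM and the log2 difference -1.35. With degeneration 1 as the only degeneration library the sign turned, at 0.46. The Pdp1 values in degeneration 2 and 3 also go with the muscle and kidney marker sums given above, whose part was not tested.

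Neither gene separated the 2 groups of 3. Among the 5229 loci with a mean of at least 5 CPM, 8.97% had all 3 degeneration values under all 3 wild type values. In degeneration 2 and 3 both genes were under all 3 wild type values, as were 22.5% of those loci. The lowest wild type value stood 3.10-fold above the higher of these 2 libraries for Pdk4 and 2.03-fold for Pdp1. Scaling by TMM factors, which allow for a few abundant genes, left the order of libraries as it was. Pdk4 then stood at 1339, 1159 and 325 in wild type and 548, 70.9 and 76.3 in degeneration, and Pdp1 at 152, 130 and 164 and at 215, 40.2 and 45.2 (all scaled CPM). The median log2 difference over 5434 loci was 0.23 by file totals and -0.06 under TMM.

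The ratio of Pdk4 to Pdp1 within a library does not depend on the library's total. Both rows cover all GRCm38 exon bases of their gene. If the reads were aligned to that build, counts per kb can be compared between the genes. Per kb, Pdk4 exceeded Pdp1 by 11.3-fold (95% Wilson interval 10.4 to 12.4) in wild type 1 and by 11.5-fold (10.3 to 12.7) in wild type 2. In wild type 3 the ratio was 2.54 (2.28 to 2.83) and in degeneration 1 it was 3.27 (2.98 to 3.60). In degeneration 2 and 3 it was 2.27 (1.88 to 2.73) and 2.17 (1.80 to 2.61). Pdk4 thus exceeded Pdp1 per kb in every library, by a ratio near 11 in wild type 1 and 2 and between 2.17 and 3.27 in the other 4. The ratio in wild type 3 lay inside the degeneration range. Between wild type 3 and degeneration 2, Pdk4 in CPM was 3.37-fold lower and the ratio 1.12-fold lower. For degeneration 3 the values were 3.10-fold and 1.17-fold. The mean log2 ratio differed by -1.45 between degeneration and wild type, and by -2.18 without wild type 3.

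**Figure D2:**
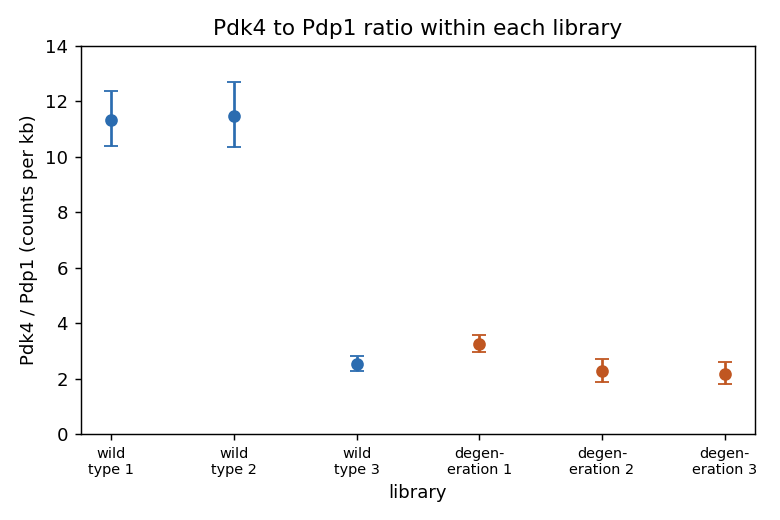
Pdk4 counts per kb over Pdp1 counts per kb in each library, blue for wild type and orange for degeneration, on an axis from 0, with 95% Wilson intervals. Wild type 1 and 2 stand at 11.3 and 11.5, and the other 4 libraries, wild type 3 included, between 2.17 and 3.27.

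The nearest located neighbours were examined for the position of the genes. Asb4, an ankyrin repeat protein of ubiquitin ligases, ends 50329 bases before Pdk4 and had 23.4, 19.6 and 28.3 CPM in the wild type libraries. In the degeneration libraries it had 29.9, 4.06 and 4.17 CPM, so it was low in degeneration 2 and 3 but did not show the gap between wild type 3 and the other wild type libraries. Dync1i1, a dynein intermediate chain 229330 bases after Pdk4, had 2 to 8 counts per library. Beside Pdp1, the non-coding gene 1700123M08Rik starts 113 bases away on the opposite strand. It stood at 14.7, 10.6 and 20.2 CPM (wild type 1 to 3) and 18.3, 2.90 and 6.73 CPM (degeneration 1 to 3), with both lowest values in degeneration 2 and 3, as for Pdp1. The counting set no strand, but the exons of the 2 genes do not overlap. Cdh17, an intestinal cadherin 140289 bases before Pdp1, had 1 count in all, in degeneration 3.

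Genes with a profile like that of Pdk4 were ranked by the root mean square difference of centred log2(CPM + 1) over the 6 libraries, among 5229 loci. The nearest was C5ar1, the receptor of complement C5a on myeloid cells (difference 0.33), at 21.4, 31.0 and 7.23 CPM (wild type 1 to 3) and 8.19, 1.16 and 0.641 CPM (degeneration 1 to 3). Next came Lyz2, the lysozyme of macrophages and neutrophils (0.34), at 122, 79.1 and 46.7 CPM (wild type) against 42.5, 6.66 and 10.3 CPM (degeneration). Slc17a7, a vesicular glutamate transporter (0.39), Vim, the intermediate filament vimentin (0.43), and Sorbs2, a Z-disc and adhesion adaptor (0.44), followed. These 5 were counted over a part of their exons, and their names come from position. Each stood higher in wild type 1 and 2 than in wild type 3, which the choice by likeness to Pdk4 favours. C5ar1 in degeneration 3 and Slc17a7 in degeneration 2 and 3 (0.290 and 0 CPM) were under the floor of 3 counts. Pdp1 was 450th in this order, with a difference of 1.04.

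The profile of Pdp1 had closer matches. Zcchc24, a zinc finger protein, differed by 0.096 and stood at 153, 119 and 163 CPM (wild type 1 to 3) and 173, 57.4 and 57.1 CPM (degeneration 1 to 3). Cox17, a copper chaperone for cytochrome c oxidase, differed by 0.11 and stood at 132, 126 and 136 CPM (wild type) against 186, 46.1 and 48.4 CPM (degeneration). Ehd4, an endocytic ATPase, Macrod1, an ADP-ribose hydrolase, and Gm20712 differed by 0.12 each. These 5 too were counted over a part of their exons, as little as 165 of 4007 bases for Ehd4, and their names come from position. Like Pdp1, these 5 had their top value in degeneration 1 and their lowest in degeneration 2 and 3, which the choice by likeness favours. Pdk4 ranked 3245th for likeness to Pdp1.

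The other genes around pyruvate dehydrogenase could be followed only in part. Of 104 genes listed beside the 2, 38 were located, over 1.31% to 100% of their exon bases (median 14.1%), so levels are compared within a gene and not between genes. With all 6 libraries edgeR's quasi-likelihood test called 0 of 37 tested, where it called 0 of 5434 loci (0.0%). At an unadjusted p under 0.05 there were 8 of the 37, against 1064 of the 5434. The 8 include Pdk3, which would not have passed the count filter but for degeneration 2 and 3 and so adds no support. In that edgeR fit the median log2 difference of the 37 was -0.14, beside -0.00 over all loci tested. DESeq2 called 4 of 35, all higher in degeneration, among them Me1 and Mpc2, where it called 8.28% of 6172 loci, 6.79% higher and 1.49% lower. The 4 include Hnf4a, which had 0 to 2 counts in the first 4 libraries and was tested only through degeneration 2 and 3, so its call adds no support. DESeq2 gave no p-value for some genes, among them Pfkm, Slc2a4 and the muscle markers Myh6, Myl3 and Ckm. These were lower in degeneration 2 and 3 than in any wild type library, so the direction of the DESeq2 calls leaves such genes out. Without degeneration 1 the edgeR count was 30 of 38, 10 higher and 20 lower, where 53.0% of all 5969 loci passed, 26.8% higher and 26.2% lower. Hnf4a is again one of the 10, and so is Pdk3, which also passed the count filter through degeneration 2 and 3. The median log2 difference was then -0.62, beside 0.01 over all loci. In that fit the muscle sum stood at 35860 to 38933 CPM against 43.7 and 40.7 CPM, and the part of tissue content was not tested. Since the labels do not tie libraries to animals, the p-values reflect library-to-library spread alone, which could be technical. With all libraries, that spread takes in a muscle sum of 39851 CPM in degeneration 1 beside 43.7 and 40.7 CPM in degeneration 2 and 3. The common dispersion, edgeR's measure of spread, was 0.189 with all libraries and 0.023 without degeneration 1. The part of tissue content in this spread was not tested.

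Subunits of the complex were located for 2 of 5, and Pdha1, the alpha chain of E1, was not among them. Pdhb, the beta chain of E1, stood at 279, 233 and 261 CPM (wild type 1 to 3) and 356, 98.8 and 67.0 CPM (degeneration 1 to 3). As with Pdp1, its top value was in degeneration 1 and its bottom values were in the other degeneration libraries. Its log2 difference was -0.62 ± 0.74 (SE) with all libraries (edgeR adjusted p = 0.629), and it fell by 2.04 ± 0.18 without degeneration 1 (edgeR adjusted p = 4.2e-06, with a range to 0.919 over 13 fits). Pdhx, which anchors the E3 subunit, stood at 4.99, 3.63 and 3.62 CPM (wild type) against 5.35, 4.93 and 4.17 CPM (degeneration), with no separation (adjusted p = 0.990, edgeR).

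The kinases did not move together. Pdk1, the kinase known from hypoxia, stood at 41.9, 28.5 and 49.1 CPM (wild type 1 to 3) and 48.5, 38.0 and 31.7 CPM (degeneration 1 to 3), a log2 difference of -0.19 ± 0.34 (edgeR adjusted p = 0.750). Pdk3 stood at 2.99, 1.96 and 2.71 CPM (wild type 1 to 3) and 1.57, 21.4 and 16.0 CPM (degeneration 1 to 3). It was thus high in the libraries in which Pdk4 was lowest, and low in degeneration 1. Its log2 difference was 2.02 ± 0.78 with all libraries and 2.46 ± 0.32 without degeneration 1. In wild type 1 to 3 it had 12, 7 and 9 counts, and in degeneration 1 it had 5. In neither fit would it have passed the count filter but for degeneration 2 and 3 (74 and 50 counts). No p-value is given for either fit. Pdk1 was counted over 102 of 7779 exon bases and Pdk3 over 232 of 2561. Of the phosphatases, Pdp1 alone was located, and Pdk2, Pdp2 and Pdpr were not analysed here.

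For genes that supply pyruvate or use it otherwise, 10 of 22 were located and tested, and 0 passed with all libraries. Without degeneration 1 there were 5 that rose and 3 that fell, beside 26.8% and 26.2% of all loci. Mpc2, a subunit of the mitochondrial pyruvate carrier, stood at 49.9, 40.5 and 59.7 CPM (wild type 1 to 3) and 67.4, 114 and 115 CPM (degeneration 1 to 3) (edgeR adjusted p = 0.232). Me1, the cytosolic malic enzyme, stood at 93.8, 58.7 and 73.2 CPM (wild type) against 114, 259 and 196 CPM (degeneration) (edgeR adjusted p = 0.232). Me3, a mitochondrial malic enzyme, stood at 108, 86.7 and 124 CPM (wild type) against 128, 217 and 251 CPM (degeneration) (edgeR adjusted p = 0.233). For these 3 every degeneration value, degeneration 1 included, exceeded every wild type value, also under TMM and DESeq2 scaling. They were named for this lack of overlap, which 12.2% of the 5229 loci with a mean of at least 5 CPM shared. By CPM the margin was smallest for Me3, with 405 counts in degeneration 1 beside 412 in wild type 3. Mpc2 had 214 counts in degeneration 1 beside 198 in wild type 3. The muscle forms were lower in degeneration 2 and 3 and higher in degeneration 1. Slc2a4, the insulin-responsive glucose transporter, stood at 124, 110 and 156 CPM (wild type 1 to 3) and 215, 32.2 and 30.1 CPM (degeneration 1 to 3). Hk2, the hexokinase of muscle, stood at 270, 322 and 392 CPM (wild type) against 421, 2.03 and 2.89 CPM (degeneration). Pfkm, muscle phosphofructokinase, stood at 701, 705 and 924 CPM (wild type) against 1036, 83.7 and 81.1 CPM (degeneration). Each of these 3 was highest in degeneration 1, and none shared the drop of Pdk4 in wild type 3. Acss1, a mitochondrial acetyl-CoA synthetase, stood at 41.9 to 79.3 CPM (wild type) and 61.1 to 99.7 CPM (degeneration).

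Of 16 regulators known to act on Pdk4, 4 were located. Ppard, a fatty acid-sensing nuclear receptor, stood at 45.8 to 50.9 CPM (wild type) and 45.5 to 55.1 CPM (degeneration), and Esrra, the estrogen-related receptor alpha, at 101 to 129 and 121 to 164 CPM. Nr3c1, the glucocorticoid receptor, stood at 15.7 to 28.9 and 21.2 to 26.1 CPM. None of these 3 passed the test: their log2 differences were -0.10 ± 0.21, 0.02 ± 0.17 and -0.08 ± 0.29 (edgeR adjusted p = 0.778, 0.952 and 0.868). Hnf4a, a nuclear receptor of liver and kidney epithelium, had 1, 1 and 0 counts in wild type, 2 in degeneration 1, and 3891 and 2661 in degeneration 2 and 3. It did not pass the count filter with all libraries, and passed it without degeneration 1 only through degeneration 2 and 3, so its counts are given with no test. In these libraries the kidney tubule sum stood at 10374 and 8252 CPM.

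Genes of fatty acid oxidation and targets of PPAR receptors, among which Pdk4 is usually counted, were located for 11 of 40. With all libraries 0 of 11 passed. Without degeneration 1 there were 2 that rose and 8 that fell, beside 26.8% and 26.2% of all loci, and the part of tissue content was not tested. Acadl, a long-chain acyl-CoA dehydrogenase, stood at 475, 428 and 430 CPM (wild type 1 to 3) and 660, 177 and 163 CPM (degeneration 1 to 3). Eci1, an enoyl-CoA isomerase, stood at 145, 128 and 162 CPM (wild type) against 246, 88.4 and 92.0 CPM (degeneration). Both were highest in degeneration 1. Cpt2, the inner carnitine palmitoyltransferase, ranged from 46.4 to 63.1 CPM in wild type and from 49.7 to 69.9 CPM in degeneration. Ucp3, a mitochondrial carrier of muscle, was singled out after its values were seen. It stood at 82.6, 129 and 47.0 CPM (wild type 1 to 3) and 81.2, 14.2 and 11.2 CPM (degeneration 1 to 3). It had the widest wild type range of the 34 listed genes with a wild type mean of at least 5 CPM, 2.75-fold, where their median was 1.34-fold and Pdk4 stood at 4.27-fold.

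Citric acid cycle genes, downstream of the complex, were located for 9 of 18, of which 0 passed with all libraries. Without degeneration 1, 1 rose and 8 fell, beside 26.8% and 26.2% of all loci, and the part of tissue content was not tested. Idh3a, a subunit of isocitrate dehydrogenase, stood at 189, 128 and 138 CPM (wild type) against 221, 63.2 and 50.7 CPM (degeneration), and Mdh2, malate dehydrogenase, at 225, 243 and 211 CPM (wild type) against 293, 113 and 91.4 CPM (degeneration). Both had their top value in degeneration 1 and their 2 bottom values in degeneration 2 and 3, as Pdp1 did. Suclg2, the GTP-specific succinyl-CoA synthetase chain known from kidney and liver, stood at 26.9, 32.4 and 41.0 CPM (wild type 1 to 3) and 43.8, 95.9 and 82.1 CPM (degeneration 1 to 3). It was the only one of the 9 to be higher in every degeneration library (edgeR adjusted p = 0.232), beside 12.2% of loci with a mean of at least 5 CPM. It had 139 counts in degeneration 1 and 136 in wild type 3.

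Among the 37 located genes of these lists with a mean of at least 5 CPM, 25 stood higher in degeneration 1 than in any wild type library, as Pdp1 did, beside 21.3% of all such loci. In degeneration 2 and 3, 18 of the 37 were below every wild type library, beside 22.5% of all such loci. Higher in all 3 degeneration libraries were 6 of the 37, beside 12.2%, among them Hnf4a with 2 counts in degeneration 1 against 0 or 1 in wild type, and lower in all 3 were 0, beside 8.97%. These counts describe genes that share a pathway and often a tissue, and are no test of it.

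**Figure D3:**
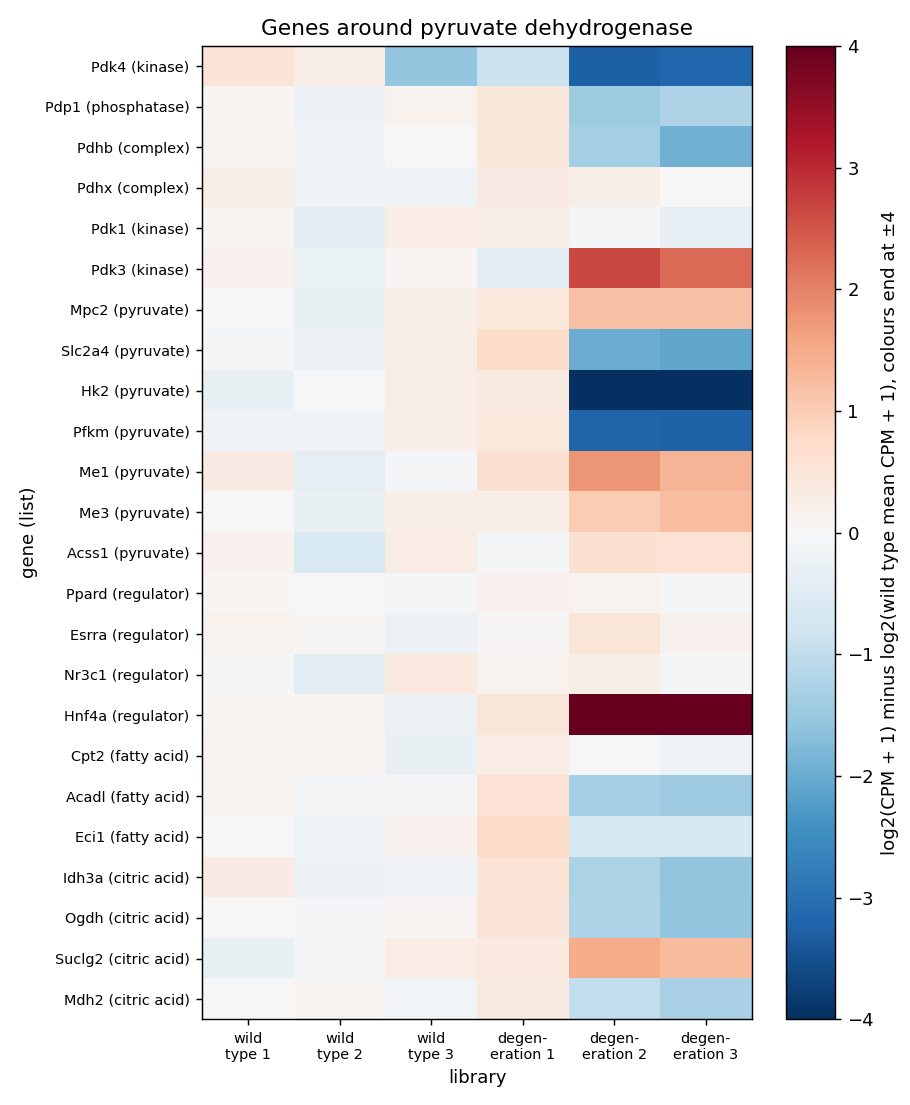
Rows are Pdk4, Pdp1 and 22 located genes of the fixed lists, columns the 6 libraries, and colour the log2(CPM + 1) minus that of the wild type mean, ending at ±4. Pdk4 is the row with the deepest blue in wild type 3, Pdp1 and most mitochondrial enzymes are above wild type in degeneration 1 and below it in degeneration 2 and 3, and Pdk3, Mpc2, Me1, Me3, Hnf4a and Suclg2 are red there.

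**Figure D4:**
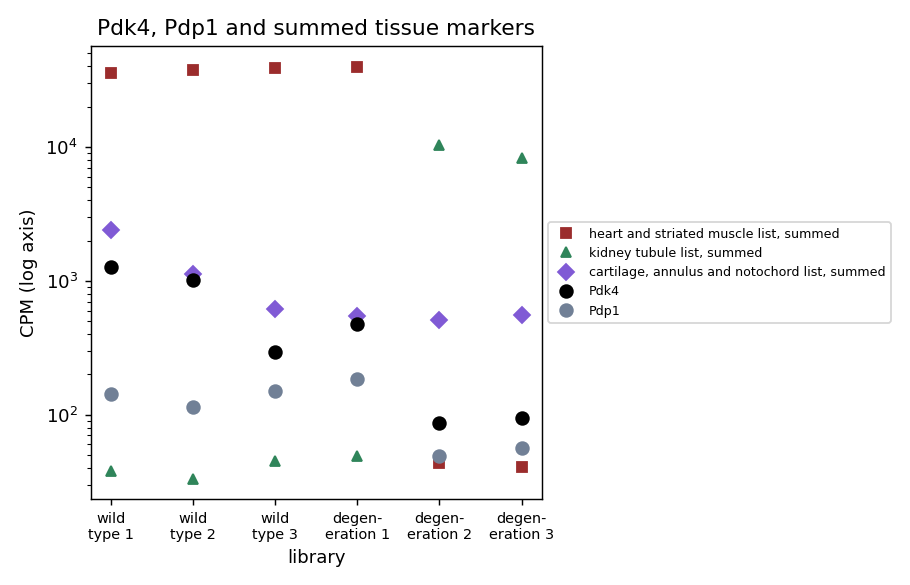
Pdk4 and Pdp1 (circles) beside the summed CPM of located markers of heart and striated muscle (squares), kidney tubule (triangles) and cartilage, annulus and notochord (diamonds) in each library, on a log axis. The muscle sum stays at 35860 to 39851 CPM over the 4 libraries in which Pdk4 goes from 1258 to 295 CPM, and drops to 43.7 and 40.7 CPM in degeneration 2 and 3, where the kidney sum reaches 10374 and 8252 CPM.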

How the data were processed

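The unit is raw counts per gene name, made by the authors with featureCounts 2.0.1 per the file headers, from paired reads with both ends mapped, over exons, with no strand option. The headers name no genome build. Bowtie 0.12.2, mm8 and mm9 are named, with no role, per the submitters' processing notes. A deposited table of the series has 12 columns, of FPKM and counts, under names in no sample label and was not used, so no FPKM is given.

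Rows were placed on GRCm38 exons of GENCODE M21 with bedtools 2.31.1 under Python 3.11.15. Names taken from position assume that the reads were aligned to GRCm38, which neither the headers nor the processing notes state. Rows that kept their name, those of Pdk4 and Pdp1 included, rest on the same assumption, since only row positions were checked. A row kept its name with at least 90% of its length on its own gene, and otherwise took the gene that held 80% or more of its exon bases, and no fewer than 100. Rows of 1 gene were summed to 10913 loci, with 49.8% to 58.7% of counts. CPM used file totals. Loci were tested with edgeR 4.0.16 (R 4.3.3), quasi-likelihood, TMM, filterByExpr, Benjamini-Hochberg, threshold 0.05. SE came from the test statistic. Alternatives were DESeq2 1.42.0, its size factors, other filters, rows as deposited or in register, a replicate block, and libraries left out.

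The 2 genes and all lists were chosen with earlier results of these data known. Named were all located genes of the complex and kinases, the 4 most abundant per kb of every other list and any with no overlap of groups, 5 nearest profiles per gene and the nearest located neighbours. Of these, 2 genes are not reported here.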

Additional observations from a re-analysis of the deposited data

How the results depend on the processing

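Pdk4 kept a lower mean in degeneration in all 12 alternatives. Leaving out 1 library each, its log2 difference ran from -3.23 (without degeneration 1) to -1.59, that of Pdp1 from -1.35 (without degeneration 1) to -0.16, and that of the Pdk4 to Pdp1 ratio from -2.18 to -1.09. The added setting without degeneration 2 and 3, chosen after seeing the data, turned Pdp1 to 0.46, since degeneration 1 is then the only degeneration library. Loci called by edgeR ran from 0 to 3162 with 1 library left out, and genes of the pathway lists from 0 to 30, both highest without degeneration 1. DESeq2 called 511 of 6172 loci with an adjusted p and 4 of 35 pathway genes with all libraries, and without degeneration 2 and 3 edgeR called 1 locus. Same-numbered libraries did not deviate together (correlations -0.07, 0.10 and -0.11), so numbers were not taken as pairs. With the replicate block the log2 differences were -2.20 for Pdk4, -0.74 for Pdp1 and -1.45 for the ratio, and 0 loci and 0 pathway genes were called. Alternatives for FPKM were not run. Depth did not limit Pdk4 or Pdp1, whose lowest counts were 297 and 171. Partial exon cover limits the other genes.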
